A study of Sus scrofa with 14 samples.

Results

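The cell cycle genes described here are the cyclins, cyclin-dependent kinases, their regulators and the mitotic kinases that the pig array measures under a traceable name. A probe belonged to them when its RefSeq accession led to a gene whose symbol starts with CCNA, CCNB, CCND, CCNE, CDK, CDC2, CDC4, MCM and a digit, BUB, AURK or PLK, or to PCNA, MKI67 or TOP2A. The brightest probe stood for a gene. This gave 21 genes, read by 36 probes, of 3020 named genes. They were CCNB1, CCNB2, CCND2, CCND3, CDK1, CDK4, CDK5, CDK5R1, CDK10, CDK2AP1, CDKN1B, CDKN2B, CDKN3, CDC20, CDC23, CDC25C, CDC42, CDC42SE1, AURKA, AURKB and TOP2A. No probe could be named for a CCNA, CCNE, MCM, BUB or PLK gene, or for PCNA or MKI67. Replication is therefore represented by TOP2A and by a separate list of other replication genes given further on.

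The lining of the small intestine is renewed from crypts, where stem cells and their dividing daughters sit, and the cells stop dividing as they move onto the villus. D-type cyclins with CDK4 drive a cell out of the G1 phase, and B-type cyclins with CDK1 drive it into mitosis. CDC20 and the anaphase-promoting complex then destroy the B-type cyclins so that the cell can divide. Dividing cells in a scraping of mucosa can also be lymphocytes of the follicles.

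Gene expression was measured in male piglets of 5 weeks and 8.2 kg with the small intestinal segment perfusion technique (SISP), in which segments of the jejunum of an anaesthetised animal are perfused. A segment received 20 ml of control digest (Sd) or of onion digest, and its mucosa was scraped after 6 h of perfusion. Pigs 1, 2 and 4 each gave an Sd and a yellow onion (YOd) segment, and pigs 5, 6, 7 and 8 each gave an Sd and a white onion (WOd) segment, so that 14 one-colour Agilent arrays covered 7 pigs and no pig received both onions. The labels name no breed or genotype. According to the methods the onion digests and the control digest were not diluted alike before perfusion, and both segments of a pair lay in the same animal. In a scraping, fewer cells of a type and less RNA per cell cannot be told apart.

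Levels are log2 values of the processed signal over the 75th percentile of its array, with values under the pooled 40th percentile raised to it (a log2 level of -4.43, the floor). Ratios are differences of these levels, onion minus Sd, within a pig. For genes above the floor, the scaling added 0.18, 0.12 and 0.62 to the log2 ratios of pigs 1, 2 and 4. In pigs 5, 6, 7 and 8 it added -0.09, -0.05, 0.08 and 0.19. The share of probes well above background ranged from 50.6% to 70.7%, with the lowest shares on the Sd array of pig 8 (50.6%) and the WOd array of pig 7 (55.2%). The arrays lay on 5 slides, and in pigs 2 and 7 the Sd array lay on another slide than the onion array and was scanned in the second of 2 sessions. The Sd array of pig 6 stood apart by MS4A1 and CD79A, both genes of B cells, of the 3 B cell markers read. MS4A1 had a log2 level of 0.92 there against at most -2.98 on the other 13 arrays, and CD79A had -0.25 against at most -2.69. The third, CD40, which other cells also carry, had 3.84 there and up to 4.05 elsewhere. The enterocyte markers were bright on every array, with 10 of the 11 measured saturated on 13 or 14 arrays.

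Of the 21 cell cycle genes, 20 were well above background on all 14 arrays and none was saturated on any array. CDC23, a subunit of the anaphase-promoting complex, was at the floor on all 14 arrays and well above background on 3 of them, so it was not tested. The roles that follow were assigned after the values were seen. The remaining 20 are described by role: 9 genes of mitotic entry and mitosis (CCNB1, CCNB2, CDK1, CDC25C, CDC20, AURKA, AURKB, TOP2A and CDKN3, called the mitotic genes), 6 genes of the G1 phase (CCND2, CCND3, CDK4, CDKN1B, CDKN2B and CDK2AP1), and 5 genes that the symbols bring in but that mostly act elsewhere (CDC42, CDC42SE1, CDK5, CDK5R1 and CDK10).

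The mitotic genes differed between the Sd segments of the pigs, which were perfused alongside the onion segments. With 1 Sd array a pig, differences of animal, segment and array cannot be told apart. In the Sd segments, all 9 were under their own median in pig 1, which held the lowest value of 7 of them, and 7 of 9 were under it in pig 6, which held the lowest value of the other 2. Pig 2 was above the median for 8 of 9, pig 4 for 7 and pig 5 for 6. The like counts over all genes tested are not given here, so this order need not be particular to the mitotic genes. The SD over the 7 Sd arrays had a median of 0.48 over the 9 genes, against 0.45 over the G1 genes and 0.39 over all genes tested. The high MS4A1 and CD79A of the Sd array of pig 6 thus stood beside low levels of the mitotic genes.

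With onion, the mitotic genes were lower on average, and the pigs differed in direction. All 9 had a fitted log2 ratio under 0 over the 7 pigs, from -0.43 for TOP2A to -0.16 for AURKB, with a median of -0.28. Of all 2453 genes tested, 29.4% had a ratio under 0 and the median ratio was 0.09. Because the 9 genes were grouped after the values were seen, this is a description and not a test. No mitotic gene passed both thresholds, a raw p under 0.05 and over 1.5-fold. In pig 4 every mitotic gene was over 1.5-fold lower with onion, and in pig 7 every one was higher.

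TOP2A, the topoisomerase that untangles chromosomes before they separate, had log2 levels in Sd of 0.97, 2.03 and 2.04 in pigs 1, 2 and 4 and of 1.99, 1.22, 1.52 and 2.12 in pigs 5, 6, 7 and 8. With YOd the levels were 0.60, 1.96 and 0.81, and with WOd they were 1.5, 0.84, 2.08 and 1.11. It was lower with onion in 6 of 7 pigs, and the groups overlapped. The largest difference within a pig was 2.35-fold, in pig 4, followed by 2.01-fold in pig 8. Over the 7 pigs the fitted log2 ratio was -0.43 ± 0.19 (SE; limma, raw p under 0.05, adjusted p = 0.658).

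CDK1, the kinase partner of the B-type cyclins, had log2 levels in Sd of 2.11, 3.26, 3.27, 2.94, 2.41, 2.96 and 3.11 in pigs 1, 2, 4, 5, 6, 7 and 8. In the same order the onion segments had 1.85, 3.14, 2.22, 2.53, 2.47, 3.03 and 2.41. The ratio was under 0 in 5 pigs and close to 0 in pigs 6 (0.05) and 7 (0.08). The fitted log2 ratio was -0.34 ± 0.15 (SE; limma, raw p under 0.05, adjusted p = 0.658).

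The B-type cyclins gave like patterns to each other. CCNB1 had log2 levels in Sd of 1.71, 2.88, 2.84, 2.60, 1.83, 2.16 and 2.62 in pigs 1, 2, 4, 5, 6, 7 and 8, and of 1.68, 2.77, 1.66, 2.21, 1.57, 2.92 and 1.78 with onion. CCNB2 had -1.23, 0.04, -0.33, 0.15, -1.31, -0.73 and -0.48 in Sd and -1.28, -0.13, -1.53, -0.52, -1.43, 0.26 and -1.25 with onion. Both were lower with onion in 6 of 7 pigs, by the most in pig 4 (log2 ratios of -1.18 and -1.20), and both were higher in pig 7 (0.76 and 0.99). Their fitted log2 ratios were -0.29 (95% confidence interval -0.73 to 0.15) and -0.28 (-0.77 to 0.20).

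CDC20, the activator of the anaphase-promoting complex, had the widest spread of the cell cycle genes between pigs, with an SD of its log2 ratios of 0.75. Its log2 levels in Sd were 0.07, 0.83, 1.26, 1.05, 0.44, 0.22 and 0.12 in pigs 1, 2, 4, 5, 6, 7 and 8, and with onion they were -0.44, 1.37, -0.34, 0.64, 0.12, 0.86 and -0.31. It was 3.03-fold lower in pig 4 and higher in pigs 2 and 7, the pigs with arrays on different slides. AURKA, a kinase of the spindle poles, had log2 levels in Sd of -1.54, -1.16, -0.95, -0.48, -2.34, -2.15 and -1.45 and with onion of -2.02, -1.05, -2.07, -1.33, -2.29, -1.47 and -1.70. Its ratio was under 0 in 4 of 7 pigs. The fitted log2 ratios were -0.30 (95% confidence interval -0.81 to 0.22) for CDC20 and -0.26 (-0.70 to 0.17) for AURKA.

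Of the remaining mitotic genes, CDC25C, the phosphatase that activates CDK1, had ratios between -1.09 and 0.40, with 4 of 7 pigs under 0. CDKN3, a phosphatase that acts on CDK1 and CDK2, had ratios between -0.76 and 0.32, with 5 of 7 pigs under 0. AURKB, the kinase of the chromosomal passenger complex, had ratios between -0.87 and 0.29, with 4 of 7 pigs under 0. For each of these the lowest ratio was that of pig 4.

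**Figure D1:**
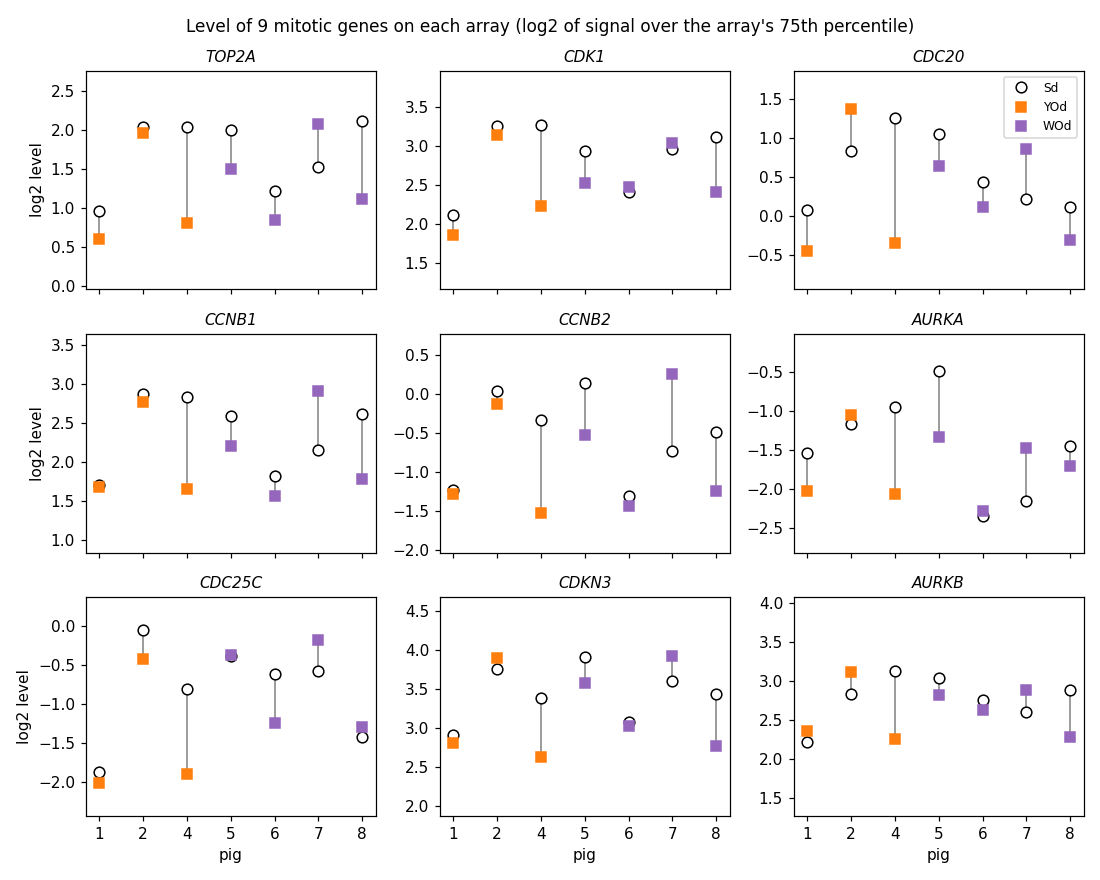
Log2 level of each of the 9 mitotic genes (y axis, 1 scale length for all panels) on the Sd array (open circles) and on the YOd or WOd array (squares) of each pig (x axis), with a line joining the arrays of a pig. The onion square lies under the Sd circle in all panels for pig 4 and above it in all panels for pig 7.

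Pig by pig, the mitotic genes lay furthest under 0 in pigs 4, 8 and 5 and above 0 in pig 7. The median over the 9 genes of the log2 ratio was -1.12, -0.66 and -0.41 for pigs 4, 8 and 5. For pigs 1, 6 and 2 it was nearer to 0, at -0.14, -0.12 and -0.07, and for pig 7 it was 0.56. The median over all genes tested lay between -0.07 and 0.20 in these pigs. The SD of the ratio over the 7 pigs had a median of 0.59 over the mitotic genes, against 0.33 over all genes tested.

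Among all 20 tested cell cycle genes, 9 were over 1.5-fold lower with onion in pig 4, all of them mitotic, where 5.93% of all genes were. In pig 8 there were 6, again all mitotic, against 6.77% of all genes, and in pig 5 there were 2, CCNB2 and AURKA, against 6.09%. CDC25C was over 1.5-fold lower in pig 6, where 8.08% of all genes were, and CDK5R1 in pig 7, against 8.36%. No cell cycle gene was over 1.5-fold lower in pigs 1 and 2, where 3.75% and 0.613% of all genes were.

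In the other direction, 4 genes were over 1.5-fold higher with onion in pig 7 (AURKA, CCNB1, CCNB2 and CDC20), where 10.6% of all genes were. Pig 5 had CCND2 and CDK5R1 against 10.5% of all genes, pig 8 had CCND3 and CDKN2B against 5.58%, and pig 4 had CDKN1B against 18.4%. There was none in pigs 1, 2 and 6, where the shares of all genes were 11.5%, 2.04% and 8.16%. These counts within a pig rest on 1 array a segment and have no test.

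**Figure D2:**
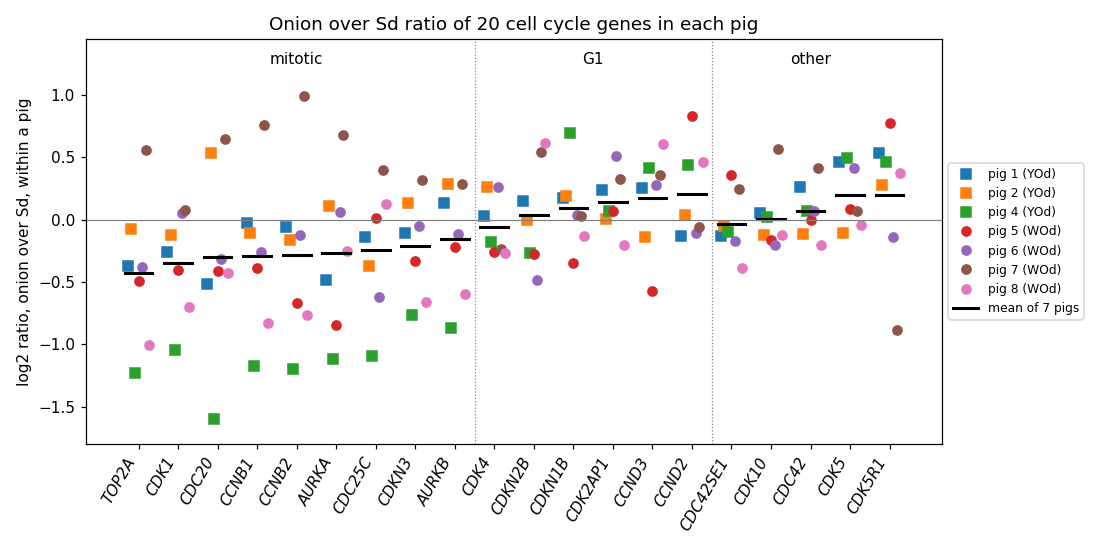
Log2 ratio of onion over Sd within each pig (y axis) for the 20 tested cell cycle genes (x axis), grouped by role, with squares for YOd pigs, circles for WOd pigs and a bar for the mean of 7 pigs. The bars of all 9 mitotic genes lie under 0, with pig 4 lowest in each of them, and the G1 and other genes scatter around 0.

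Across the 4 comparisons fitted here, none of the 20 genes passed the thresholds. The methods of the study name those of YOd and of WOd against Sd, and the others were added here. For either onion against Sd over the 7 pigs this was 0 of 20, where 1.22% of all genes tested passed, and 2 of 20 (TOP2A and CDK1) had a raw p under 0.05. For YOd against Sd it was 0 of 20 against 4.5% of all genes, with a raw p under 0.05 for CDC25C and CDK5R1. For WOd against Sd it was 0 of 20 against 1.18%, with no raw p under 0.05. When the effect of WOd was subtracted from that of YOd it was 0 of 20 against 3.52%, again with no raw p under 0.05. By limma no gene of the whole table had an adjusted p under 0.05 in any of these comparisons, while 168, 269, 64 and 108 genes had a raw p under 0.05.

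The fitted ratios of the mitotic genes were under 0 for each onion, with a raw p under 0.05 for CDC25C with YOd alone. Not every pig had them: 4 of the 9 were higher in pig 2 and all 9 in pig 7. With YOd, in pigs 1, 2 and 4, their median fitted log2 ratio was -0.48, against 0.14 over all genes. The values reached -0.56 ± 0.24 (SE) for TOP2A and -0.53 ± 0.21 for CDC25C, the latter with a raw p under 0.05 and an adjusted p of 0.391 by limma. With WOd, in pigs 5 to 8, the median was -0.16 against 0.04 over all genes, from -0.33 ± 0.26 (SE) for TOP2A to -0.02 ± 0.20 for CDC25C. The difference between the onions was tested as an interaction and did not pass for any mitotic gene. It was largest for CDC25C, at -0.51 (95% confidence interval -1.23 to 0.20, adjusted p = 0.850 by limma).

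The median of all genes in YOd against Sd moved from 0.14 to -0.16 without scaling between the arrays and to 0.05 with quantile normalization. The median of the mitotic genes was -0.48, -0.78 and -0.49 in the same order, and all 9 lay under the median of all genes each time. CDC25C, CDK1 and TOP2A passed the thresholds in YOd against Sd without scaling, 3 of 20 where 4.15% of all genes passed. The same 3 genes passed with the median of the genes tested set to 0 on every array, where 3.33% of all genes did. All of them were lower.

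The values depended on which pigs entered. Without pig 4 the median of the 9 mitotic genes over the other 6 pigs was -0.12 in place of -0.28, and CDC20 had -0.08 in place of -0.30. TOP2A had -0.29 and CDK1 -0.23 there, and neither had a raw p under 0.05. Of the 7 fits that leave out 1 pig, TOP2A kept a raw p under 0.05 in those without pig 2 or pig 7, and CDK1 in those without pig 2, 6 or 7. Without pig 7, TOP2A passed the thresholds over the other 6 pigs, at -0.59 ± 0.16 (SE; limma, adjusted p = 0.292), the only one of 20 where 1.99% of all genes passed. It also passed in WOd against Sd without pig 7, at -0.63 ± 0.21 (SE; limma, adjusted p = 0.768), where 3.51% of all genes did. Without pig 2, AURKA, CDC20, CDC25C, CDK1 and TOP2A passed in YOd against Sd, with log2 ratios from -1.06 for CDC20 to -0.61 for CDC25C. That is 5 of 20 where 13% of all genes passed, and it rests on pigs 1 and 4 alone. Without pig 1 CDC25C alone passed there, 1 of 20 where 1.96% of all genes did. Without pig 6 CDC25C alone passed for the difference between the onions, 1 of 20 where 3.43% did.

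The 5 pigs with both arrays on 1 slide were pigs 1, 4, 5, 6 and 8. Over these, TOP2A had a log2 ratio of -0.70 ± 0.17 (SE; limma, adjusted p = 0.164) and CDC20 of -0.65 ± 0.20 (adjusted p = 0.301), and both passed the thresholds, 2 of 20 where 3.24% of all genes passed. A raw p under 0.05 was reached by 7 of the 9 mitotic genes there, all but AURKB and CDC25C. Of all 2467 genes tested over these pigs, 266 reached it. By limma 14 of all genes had an adjusted p under 0.05 there, and no cell cycle gene was among them. With the slide as a further block the fitted log2 ratios were the same as over these 5 pigs, since only pigs 2 and 7 changed slide within a pair. The block is thus no separate check. The same 2 genes passed for either onion, 2 of 20 where 3.26% of all genes passed. Under that block 6 of 20 passed with YOd (AURKA, CCNB2, CDC20, CDC25C, CDK1 and TOP2A), where 13.3% of all genes did, and 1 of 20 with WOd (TOP2A), where 3.69% did. Leaving out pigs 2 and 7 removes a change of slide and scan session together with those animals, and these cannot be told apart.

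**Figure D3:**
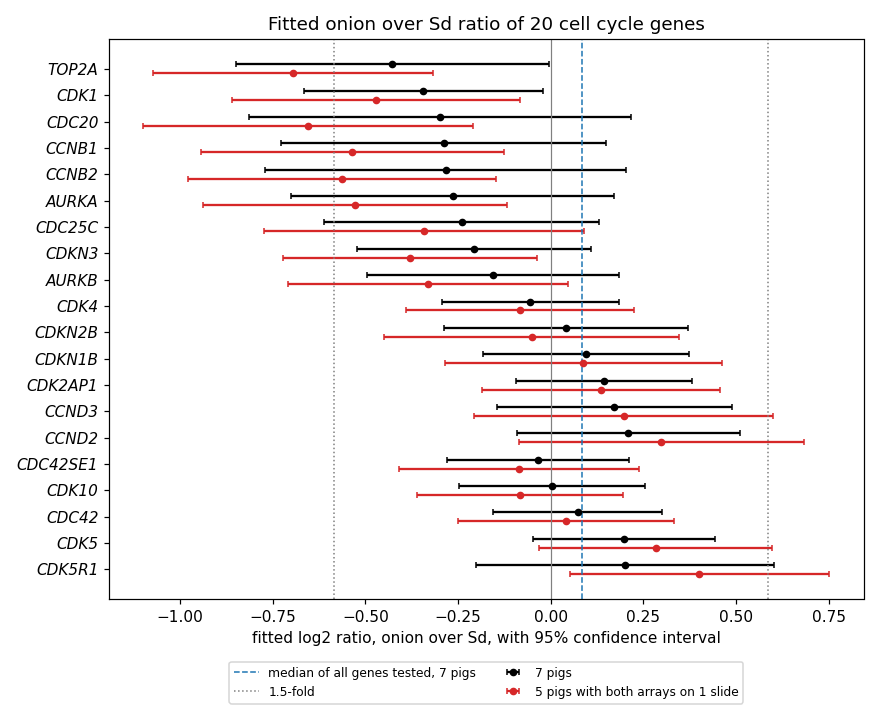
Fitted log2 ratio of onion over Sd (x axis) with its 95% confidence interval for the 20 tested cell cycle genes (y axis), over 7 pigs (black) and over the 5 pigs with both arrays on 1 slide (red). The dashed line is the median of all genes tested and the dotted lines mark a 1.5-fold change. The interval lies under 0 for TOP2A and CDK1 over 7 pigs and for 7 mitotic genes over 5 pigs, where that of CDK5R1 lies above 0.

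The genes of the G1 phase had small ratios, close to those of all genes. Their median fitted log2 ratio over the 7 pigs was 0.12, close to the 0.09 of all genes, with 5 of 6 above 0 and a range from -0.06 to 0.21. None had a raw p under 0.05 in any comparison.

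CDK4, the kinase partner of the D-type cyclins, had log2 levels in Sd of 0.48, -0.10, 0.58, 0.09, -0.62, -0.23 and 0.45 in pigs 1, 2, 4, 5, 6, 7 and 8. With onion they were 0.51, 0.16, 0.41, -0.17, -0.36, -0.46 and 0.18. The ratios stayed between -0.27 and 0.26, and the fitted value was -0.06 (95% confidence interval -0.29 to 0.18), an interval that holds no 1.5-fold change. The D-type cyclins themselves had fitted log2 ratios of 0.21 (-0.09 to 0.51) for CCND2, with its highest ratio of 0.83 in pig 5, and of 0.17 (-0.14 to 0.49) for CCND3, with -0.57 in pig 5 and 0.61 in pig 8.

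CDKN1B, an inhibitor of cyclin and kinase complexes that accumulates in cells leaving the cycle, had log2 levels in Sd of 3.43, 2.51 and 2.57 and in YOd of 3.60, 2.70 and 3.27 in pigs 1, 2 and 4. In pigs 5, 6, 7 and 8 the levels were 3.22, 2.36, 3.12 and 3.06 in Sd and 2.87, 2.40, 3.15 and 2.93 in WOd. It was higher in each of the 3 YOd pigs, by the most in pig 4 (log2 ratio of 0.70). In the 4 WOd pigs it was close to 0 or lower. The scaling added 0.18, 0.12 and 0.62 in pigs 1, 2 and 4 to every gene above the floor, the mitotic genes among them. CDKN1B had log2 ratios of 0.18, 0.19 and 0.70 there. The part of the scaling in the rise of CDKN1B was not tested. The fitted log2 ratio was 0.36 ± 0.17 (SE; limma, adjusted p = 0.391) with YOd and -0.10 ± 0.15 with WOd, and the test of the difference gave 0.46 (95% confidence interval -0.03 to 0.95, adjusted p = 0.850). Over the 7 pigs its ratio of 0.09 went to -0.06 without scaling between arrays and to -0.01 without pig 4. CDKN2B, an inhibitor of CDK4, had a fitted ratio of 0.04 (-0.05 over the pigs on 1 slide) over pigs that ranged from -0.48 to 0.62, and CDK2AP1, a binding partner of CDK2, had 0.14 with 6 of 7 pigs above 0.

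The genes brought in by their symbols varied around the median of all genes. CDC42, a small GTPase of cell polarity, had the steadiest values of all 20, with an SD of its log2 ratios of 0.21 and a fitted ratio of 0.07 (95% confidence interval -0.16 to 0.30). CDC42SE1, a small effector of CDC42, had -0.03. CDK10 had 0.00, and -0.09 without pig 7. CDK5, a kinase best known from neurons, had 0.20 (-0.05 to 0.44) with 5 of 7 pigs above 0. CDK5R1, its activator, was higher in the 3 YOd pigs (log2 ratios of 0.53, 0.28 and 0.47), with a fitted ratio of 0.43 ± 0.14 (SE; limma, raw p under 0.05, adjusted p = 0.391) that stays under 1.5-fold. The scaling added 0.18, 0.12 and 0.62 to these 3 ratios, more than the ratio itself in pig 4. In the WOd pigs CDK5R1 ranged from -0.89 in pig 7 to 0.78 in pig 5.

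Several genes were read by more than 1 probe, which checks the sign of a ratio within the same arrays. The 9 mitotic genes had 16 probes, and the mean log2 ratio over the 7 pigs was under 0 for all 16, from -0.43 to -0.16. Only 7 of these are further probes beside those already described, with means from -0.33 to -0.22. TOP2A, CCNB1, CCNB2 and CDC20 had 1 probe each and so no such check. In pig 4 all 16 probes were lower with onion, in pig 8 15 were, and in pig 7 none was. The second probe of CDC25C gave -1.59 in pig 4 and 0.95 in pig 7, wider than the -1.09 and 0.40 of the first. The second probe of CDK1 gave 0.88 in pig 7 where the first gave 0.08, so the size of the ratio in that pig depended on the probe. Probes of CDC42 disagreed in pig 2 (-0.12 and -0.79) and those of CDK10 in pig 8 (-0.13, -0.04 and 0.57).

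Other cell cycle genes, taken from lists of the pathway drawn up with earlier results of these data known, were on the array in small numbers. Of 52 other genes of mitosis 6 were measured (BIRC5, CKS1B, MYBL2, HMGB2, STMN1 and KPNA2), and none passed the thresholds in any of the 4 comparisons. Of all genes 1.22%, 4.5%, 1.18% and 3.52% passed there, so a count of 0 in so short a list is uninformative. Their median fitted log2 ratio over the 7 pigs was -0.17, with the largest values for HMGB2, a chromatin protein abundant in dividing cells (-0.28 ± 0.19, SE), MYBL2, a transcription factor of late cell cycle genes (-0.25 ± 0.16), and BIRC5, survivin of the chromosomal passenger complex (-0.18 ± 0.15). All 6 were lower with onion in pigs 4 and 8 and none was lower in pig 7. Of all genes 30.7%, 57.5% and 36.9% were lower in pigs 4, 8 and 7.

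Of 46 other genes of DNA replication and nucleotide supply 8 were measured, and 0 of 8 passed the thresholds in the same comparisons. The shares of all genes were the 1.22%, 4.5%, 1.18% and 3.52% given above. Their median fitted ratio was -0.08. The largest values were 0.25 ± 0.10 (SE) for POLD3, a subunit of DNA polymerase delta, -0.17 ± 0.16 for ASF1B, a histone chaperone, and -0.14 ± 0.12 for PRIM1, the small primase subunit. POLD3 was higher with onion in all 7 pigs, also in pig 4, with a raw p under 0.05 and an adjusted p of 0.658 by limma. Its ratios of 0.16, 0.67 and 0.08 in pigs 1, 4 and 8 stand beside the 0.18, 0.62 and 0.19 that the scaling added. In pig 4, 6 of the 8 were lower and in pig 8, 7 were, where 30.7% and 57.5% of all genes were.

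Of 49 other G1, checkpoint and cyclin genes 10 were on the array and 9 were tested over the 7 pigs, with a median fitted ratio of 0.07. None was past the thresholds, beside the same shares of all genes. The largest values were -0.49 ± 0.19 (SE) for CHEK2, a kinase of the DNA damage checkpoint, 0.16 ± 0.09 for CDC37, a chaperone of kinases, and 0.15 ± 0.11 for GADD45A, a stress-induced growth arrest gene. CHEK2 had the largest value of these lists (limma, raw p under 0.05, adjusted p = 0.658) and was lower in 5 of 7 pigs, pig 7 among them with -1.45, so it did not follow the mitotic genes there.

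**Figure D4:**
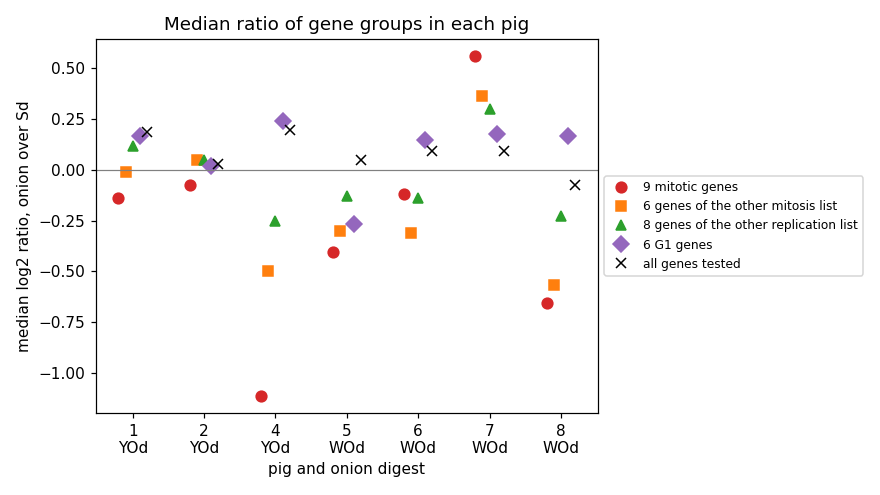
Median log2 ratio of onion over Sd (y axis) in each pig (x axis, with its onion digest) for the 9 mitotic genes, the 6 measured genes of the other mitosis list, the 8 measured genes of the other replication list, the 6 G1 genes and all genes tested. The mitotic genes and the other mitosis list lie lowest in pigs 4 and 8 and highest in pig 7, while the median of all genes stays between -0.07 and 0.20.

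Markers of the cell types that a scraping can hold were read beside these ratios. Crypt base markers were few. Of 16 listed, ASCL2, a stem cell transcription factor, and SOX9, which marks the lower crypt, were measured, and neither LGR5 nor OLFM4 could be read. ASCL2 had log2 ratios of 0.52 in pig 4, -0.16 in pig 8 and -0.60 in pig 7, and SOX9 of -0.38, 0.75 and -0.48. ASCL2 thus had the sign of the mitotic genes in pig 8 alone of these pigs, and SOX9 in pig 4 alone. In pigs 1, 2, 5 and 6, where the median of the mitotic genes was under 0, ASCL2 had 0.18, 0.25, 0.89 and -0.01. SOX9 had -0.55, 0.29, -0.36 and -0.32 there, under 0 in pigs 1, 5 and 6. In pig 4 the scaling added 0.62 to both ratios. SOX9 lay near the floor, with levels from -3.94 to -2.41, and only 1 of the 2 markers was well above background on every array.

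The T cell list had 9 of its 14 genes on the array. Their median log2 ratio was 0.60 in pig 4 and 0.52 in pig 7, the pigs in which the mitotic genes went in opposite directions. It was -0.44 in pig 8. The scaling added 0.62 in pig 4, about as much as that median, against 0.08 in pig 7 and 0.19 in pig 8. The summed level of the list ranged from 5.12 to 7.37 in Sd, from 6.54 to 6.85 in YOd and from 5.22 to 7.55 in WOd. Of the smooth muscle list 5 of 11 genes were measured, with summed levels from 4.42 to 5.42 in Sd, 4.47 to 5.60 in YOd and 3.66 to 5.06 in WOd, and they had medians of -0.39 in pig 4, -0.65 in pig 7 and -0.17 in pig 8. Of 17 B cell and germinal centre markers 3 were read here, and in pig 6 CD79A and MS4A1 were at the floor with WOd, so that their ratios there are only bounds, beside a median of -0.12 for the mitotic genes. Ratios of the saturated enterocyte markers have no meaning, and the 1 unsaturated marker, SLC15A1, had 0.07 in pig 4, -0.20 in pig 7 and -0.56 in pig 8. Over the 8 marker lists and the 4 comparisons, S100A9, a calcium-binding protein of neutrophils, was the 1 gene past the thresholds. It was higher with YOd at 0.67 ± 0.27 (SE; limma, adjusted p = 0.391), where 4.5% of all genes passed. In the other comparisons 1.22%, 1.18% and 3.52% of all genes did. Its log2 ratios in pigs 1, 2 and 4 were 1.51, 0.10 and 0.41, beside the 0.18, 0.12 and 0.62 that the scaling added. The part of cell composition, slide and share of probes above background in the ratios of the mitotic genes was not tested.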

How the data were processed

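The authors deposited scanner files of 14 arrays made by Feature Extraction 10.7.3.1, with the background-subtracted processed signal of each spot, an intensity on a linear scale, and flags as other columns. They also deposited a table of log2 values, for which the submitters' processing notes name RMA and the paper's text flooring. Its centring was per probe, and how it was normalized between arrays is not given in the sources used here. From the signal, spots without an outlier flag were averaged per probe, scaled to the array's 75th percentile, raised to a floor (the 40th percentile over all arrays) and log2 transformed. Names came from RefSeq accessions through the Sscrofa11.1 reference, which matched 6686 of 43603 probes. The authors named more probes by sequence comparison, which was not used here.

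The fits used limma 3.58.1 (R 4.3.3) over all named genes above the floor on as many arrays as the smaller group held, with the pig as a block, and the steps around them used Python 3.11.15. Calls needed a raw p under 0.05 and over 1.5-fold, with Benjamini-Hochberg values beside them. The samples of a pair came from the same animal, and the deviations of its arrays from their group means gave a Pearson's r between 0.490 and 0.722 across 2453 genes. Each segment gave 1 array, and the number of arrays limits the precision. The fits were tested on simulated data. Genes with the value of every array are the 5 largest ratios over the 7 pigs and, where on the array, a list of common cell cycle genes. Other cell cycle genes named are the 3 largest ratios of each list. The members and lists were chosen with earlier results of these data known, and the roles were assigned after the values were seen.

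The alternatives were quantile normalization, no scaling, normexp background correction with an offset of 50, no floor, 2 filters on dim genes, the mean of all probes, every probe tested, the log2 table of the authors, no block, the slide as a block, the pigs on 1 slide and each pig left out. Normexp was run on the median signal of the spots. Centring on the median of the genes tested was chosen after seeing the data. Pig 3 was not analysed here, and some markers of the lists are not reported here.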

Additional observations from a re-analysis of the deposited data

Results flagged for a closer look

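Dixon's test was applied to 62 groups of 4 or 7 values, of which chance flags about 1 in 20, and 7 values stood apart from the rest of their group. Of the ratios of WOd over Sd in 4 pigs, CDC20 was high in pig 7 (log2 ratio of 0.65), CDK10 was high in pig 7 (0.56, which also stood apart among all 7 pigs at 0.56) and CDK4 was high in pig 6 (0.26). Of the Sd levels, CDK2AP1 was low in pig 6 (log2 level of 3.02). The Sd array of pig 6 also held the highest levels of the B cell genes CD79A (-0.25) and MS4A1 (0.92). These genes lie outside the cell cycle genes and their levels are those already described, so their flags are no further result. MS4A1 was at the floor on 11 of the other 13 arrays, where the rate of 1 in 20 need not hold. The flags of CDK10 rest on the same ratio of pig 7.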

How the results depend on the processing

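Of the alternatives to the count of cell cycle genes past the thresholds, 17 of 20 left 0 for either onion, 10 of 16 for YOd, 14 of 17 for WOd and 19 of 20 for the difference between the onions. With the slide as a further block there were 2 for either onion, 6 for YOd and 1 for WOd. Of all genes 3.26%, 13.3% and 3.69% passed there. Over the pigs with both arrays on 1 slide there were 2, 5 and 1. These 2 settings rest on the same pigs and are not separate checks. Without scaling, and with centring chosen after seeing the data, there were 3 for YOd. With a pig left out the counts ran from 0 to 1 for either onion, 0 to 5 for YOd, 0 to 1 for WOd and 0 to 1 for the difference. Without the replicate block the count was 0 in all 4 comparisons. The median log2 ratio over the 7 pigs ranged from -0.20 to -0.03 for the 20 genes and from -0.53 to -0.12 for the 9 mitotic genes, under 0 in all 20 alternatives, with -0.12 from leaving out pig 4. No mitotic gene changed direction in any of these, while CDC42, CDC42SE1, CDK10, CDK2AP1, CDKN1B and CDKN2B did in at least 1. The genes that changed had main ratios from -0.03 to 0.14, nearer to 0 than any mitotic gene. A ratio near 0 changes sign more readily, so this does not set the groups apart. Of the 8 genes given with every array only CDKN1B changed direction, to -0.056 without scaling and to -0.0067 without pig 4. Its range was -0.0067 to 0.17 over the pigs left out. The cause was not tested. Signal over background limits CDC23, which was at the floor.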
